A study of Mus musculus with 42 samples.

Results

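The respiratory chain genes described here were 50 genes taken by name, of 54353 genes that the count files shared. Of these, 13 were the protein-coding genes of the mitochondrial chromosome, all with the prefix mt-, and 37 were nuclear genes for subunits of the same complexes. No measured value was used to choose them. The 13 mt- genes held 7 subunits of complex I, 1 of complex III, 3 of complex IV and 2 of ATP synthase. The nuclear genes held 21 subunits named for complex I, all 4 of complex II, 6 of complex III, 5 of complex IV and Cycs, which encodes cytochrome c.

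The respiratory chain sits in the inner mitochondrial membrane and passes electrons from NADH (through complex I) and from succinate (through complex II) to complex III, then by way of cytochrome c to complex IV, where oxygen is reduced. Complexes I, III and IV pump protons as they do so, and ATP synthase uses the resulting gradient to make ATP. Complex II is encoded wholly in the nucleus, whereas the other complexes are built from products of both genomes. The mt- genes are transcribed as long polycistronic RNAs from the mitochondrial DNA and are cut at the tRNAs between them, with mt-Nd6 alone read from the light strand. The nuclear genes are transcribed one by one. Activated lymphocytes are known to draw on this machinery for growth and effector function.

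All libraries came from C57BL/6 (wild-type) mice, female and 8 to 12 weeks old per the study's methods. Tissue-resident natural killer cells (trNK) of the uterus were sorted as CD45+NK1.1+NKp46+CD49a+CXCR6- lymphocytes, and 34 bulk RNA-Seq libraries fell into 17 groups of 2, from which this account takes 4 series. The gestation series held trNK of virgin mice and of gestational days (gd) 6.5 and 8.5. The subset series split gd8.5 trNK by CD55 and 4-1BB into low (trNK-V), intermediate (trNK-D) and high (trNK-T) cells. In the 3-day culture, trNK-V of gd6.5 were kept, in medium for which the methods give IL-15, without IL-21, with 20 ng/mL IL-21, or with IL-21 and 1 μM of the STAT3 inhibitor Stattic (the unit of the labels, which differs from that in the methods), and live NK1.1+ cells were sorted again. In the time course, trNK of gd6.5 (trNK-V in the study's text, trNK in the labels) were kept in IL-15 with or without 20 ng/mL IL-21 for 0, 6, 24 or 72 h; the labels do not say what the 0 h libraries with IL-21 had received. Single cells were CD45+NK1.1+NKp46+ lymphocytes from pooled uteri of 5 virgin and 2 gd8.5 mice. The labels do not say whether the libraries of a group came from separate animals, so p-values measure the spread between these libraries only.

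Total counts were 11862089 to 29537298 per library outside the time course and 28541369 to 66468883 in it. All 4 trNK markers (Itga1, Eomes, Ncr1, Klrb1c) had counts in all 34 libraries. The 72 h libraries stood apart, since replicates correlated at 0.766 without and 0.853 with IL-21 over the log2 CPM (counts scaled to the library total) of the tested genes, and their 100 most abundant genes held 43.4% to 54.4% of counts. The virgin replicates correlated at 0.870, below the other 2 gestation groups. The second trNK-D library had 11690 CPM over 6 B cell genes, against 88 to 904 in the other libraries, nearly all of it from Igkc.

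The 13 mt- genes together took between 0.728% and 1.68% of counts in the first 3 series and between 1.54% and 6.84% in the time course. The 37 nuclear genes took 0.510% to 1.00% and 1.24% to 2.00%. The time course was prepared with another amplification kit, so these levels were set side by side and not compared. Within the mt- genes the counts were uneven. On the RPKM scale (counts per kilobase of gene length, scaled to the library total), mt-Cytb, mt-Nd1 and mt-Co1 had medians of 3250, 3028 and 3005 over the 34 libraries, mt-Nd4 726.7 and mt-Nd6 367.5. The medians of mt-Co2, mt-Co3 and mt-Atp6 were 103.8, 101.4 and 146.6, and those of mt-Nd3 and mt-Nd4l were 7.94 and 9.09.

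These levels cannot be read as the abundance of each transcript, since the nuclear genome holds copies of mitochondrial DNA and the part of those copies in the levels was not tested. Gene pieces with at least 98% identity on chromosome 1 covered 99.1% to 100% of the length of mt-Nd3, mt-Nd4l, mt-Co2, mt-Co3, mt-Atp6 and mt-Atp8, 63.6% of mt-Nd4 and 31.3% of mt-Co1. None covered mt-Nd1, mt-Nd2, mt-Nd5, mt-Nd6 or mt-Cytb. Counts for the 6 genes covered almost in full were therefore split in a way the files do not resolve. The copy Gm28661 took 29.6% to 63.0% of the counts of the pair with mt-Co2, and Gm10925 took 45.1% to 78.2% of the pair with mt-Atp6. Gm28438 took 8.45% to 98.8% (median 85.5%) of the pair with mt-Nd3 and Gm28437 16.9% to 82.2% of that with mt-Co3. Among the nuclear genes, Cycs had copies over 36.8% of its exons, Uqcrb over 55.4%, Cox7c over 35.5%, Ndufs3 over 34.3% and Cox5b over 27.0%. The exon length shared with an overlapping gene was 19.8% in Uqcrc2 (with Pdzd9), 19.5% in Ndufb9 (Gm49356), 12.8% in Cox5a (Gm26631), 12.3% in Ndufb5 (Mrpl47) and 10.5% in Ndufa2 (Tmco6). In the other nuclear genes it was at most 7.01%.

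**Figure D1:**
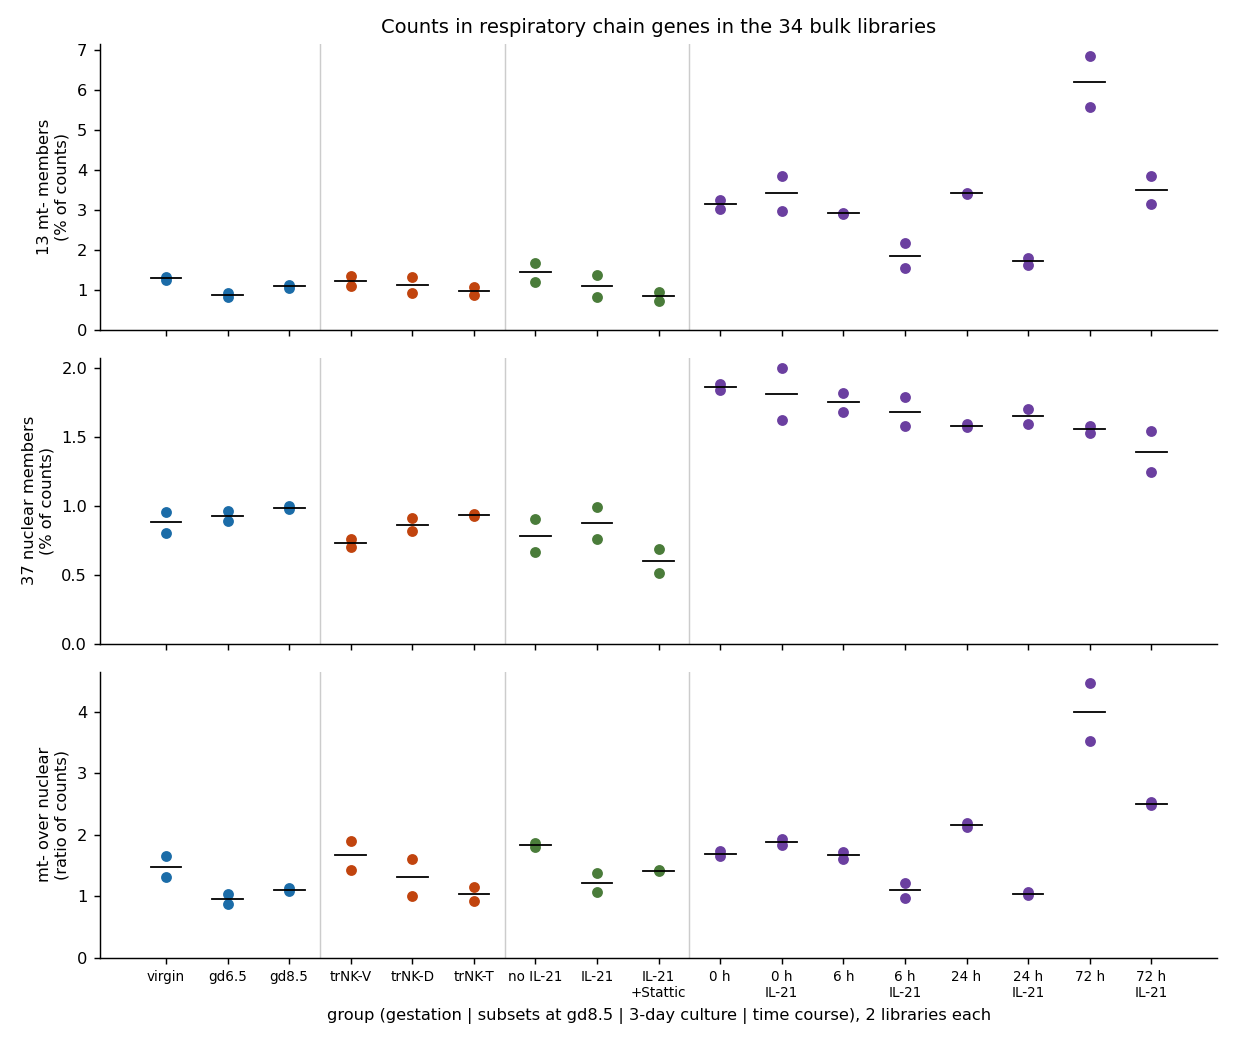
Percent of all counts in the 13 mt- genes (top) and in the 37 nuclear genes (middle), and their ratio (bottom), on linear axes from 0. Each point is 1 library, each bar the mean of the 2 libraries of a group, and grey lines part the 4 series. The mt- share was highest at 72 h without IL-21 (5.58% and 6.84%), and the ratio at 24 h was 2.12 and 2.18 without IL-21 against 1.02 and 1.06 with it.

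The first question was how these genes changed in trNK during decidualization. In gd6.5 trNK 3 of the 11 mt- genes tested, mt-Nd6, mt-Cytb and mt-Co1, fell against virgin trNK, where 4.31% of all genes were called lower. None of the 3 was called without either gd6.5 library or with a replicate block. Of 37 nuclear genes 2 fell, a share near that of all genes. mt-Nd6, a core subunit of complex I, had RPKM of 568.9 and 535.6 in the virgin libraries, 245.9 and 312.9 at gd6.5, and 401.2 and 420.2 in the libraries of gd8.5. mt-Cytb, the cytochrome b of complex III, had 2752 and 2823, then 1821 and 1966, then 2480 and 2651. mt-Co1, the catalytic subunit of complex IV, had 2773 and 2257, then 1428 and 1675, then 1859 and 2091. For all 3 genes the gd6.5 libraries lay below both virgin libraries and the gd8.5 libraries lay between the groups. mt-Nd1 had 2902 and 2912 in virgin, then 2353 and 2375, then 2463 and 2647, mt-Nd2 had 650.5 and 733.3, then 451.7 and 512.6, then 561.0 and 558.0, mt-Nd5 535.3 and 489.7, then 302.0 and 381.1, then 447.6 and 464.9, and mt-Atp6, a proton channel subunit of ATP synthase, had 56.3 and 70.2, then 27.9 and 36.4, then 37.5 and 37.3.

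In the fit over the gestation series, with edgeR's quasi-likelihood test and Benjamini-Hochberg adjustment over 4504 genes, 3 of the 11 mt- genes tested fell from virgin to gd6.5, where 9.33% of all genes were called and 4.31% were called lower. mt-Nd6 fell by 1.07 (SE 0.17) on the log2 scale with an adjusted p of 0.0288, mt-Co1 by 0.78 (SE 0.18) with 0.0482, and mt-Cytb by 0.64 (SE 0.15) with 0.0464. All 11 tested mt- genes had negative log2 fold changes without overlap between the libraries of both groups, as had 24.1% of all genes tested, with a median of -0.71 against -0.02 over all genes. Among the 37 nuclear genes, 2 were called, both lower, a share near the 4.31% of all genes called lower. Of these 37 genes, 22 had negative and 15 positive values, with a median of -0.05. Ndufa4, first described as a complex I subunit and now placed with complex IV, had RPKM of 227.3 and 208.5 in virgin and 149.8 and 149.4 at gd6.5, and it fell by 0.63 (SE 0.13, adjusted p 0.0394). Cox6c, a small subunit of complex IV, had 125.1 and 135.7 against 76.7 and 92.7 and fell by 0.71 (SE 0.16, adjusted p 0.0481). These calls rested on single libraries: without either gd6.5 library no member was called, and without either virgin library more mt- and nuclear genes were. With a replicate block no member was called, and without the RPKM filter no nuclear gene was. DESeq2 called 7 nuclear and 10 mt- genes, where it called 1129 of all 4504 genes. By limma-voom 2 and 8 were called, where 589 of all genes were.

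Values of the nuclear genes at gd6.5 against virgin are given by complex, and no difference between complexes was tested. All 4 genes of complex II had positive values (median 0.22) and so did 5 of 6 of complex III (median 0.21), and 16 of 21 of complex I and all 5 of complex IV were negative (medians -0.13 and -0.30); none of the positive ones passed the test. Sdha, the flavoprotein of complex II, had RPKM of 72.5 and 61.1 in virgin, then 101 and 99.97, then 64.5 and 69.3, and its gd6.5 value against virgin was 0.50 (SE 0.15, adjusted p 0.0835). Uqcrc1, a core protein of complex III, had 124.8 and 141.6, then 193.4 and 155.3, then 155.7 and 145.0. Ndufs1, an iron-sulphur subunit of complex I that relays electrons, had 14.4 and 9.99, then 18.7 and 16.8, then 14.04 and 15.6. Cycs had 70.1 and 115.8, then 151.7 and 127.4, then 142.7 and 145.2, and both virgin libraries lay below all pregnant ones. Cox5a, a nuclear subunit of complex IV, had 113.5 and 124.1, then 121.1 and 122.1, then 132.9 and 141.8, so that both gd8.5 libraries lay above the others.

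At gd8.5 no member differed from virgin by the adjusted p of edgeR, where 0.422% of all genes were called; 1 nuclear and 2 mt- genes had an unadjusted p under 0.05, as had 14.2% of all genes, and DESeq2 and limma-voom called none. Without the second virgin library some nuclear genes were called, with the share of all genes called in that fit not set beside them. All 11 tested mt- genes were again below virgin in both libraries (median -0.41), as were 18.1% of all genes. Between gd8.5 and gd6.5, edgeR called no gene at all (0%), with 8 nuclear and 3 mt- genes and 23.8% of all genes at an unadjusted p under 0.05. DESeq2 called 4 and 2, where it called 669 of all 4504 genes, and limma-voom none. Without the first virgin library, which left the 2 groups compared as they were, edgeR called some nuclear and mt- genes here. The share of all genes called in that fit is not set beside them. T cell genes summed to 448 to 1055 CPM in virgin and 335 to 443 CPM at gd6.5, where 2 of the 5 tested had positive values and Cd3e was at 0 in most libraries; the part of such cells in these results was not tested. The gate that the study describes for uterine NK cells and ILC1 leaves out cells with CD3 or CD5, which would remove T cells, though the labels of these libraries do not list it. Ncr1, a gene of the sort marker NKp46, fell by 1.03 (SE 0.15, adjusted p 0.0288) at gd6.5. Endothelial cell genes summed to 82.5 to 182 CPM in virgin and 227 to 277 CPM at gd6.5, epithelial cell genes to 35.9 to 73.7 and 114 to 115 CPM, and mitochondrial ribosomal RNA to 0.178% to 0.291% and 0.119% to 0.169% of counts, with their part likewise not tested. Over the 34 libraries the medians were 89.8 CPM for Pecam1, 23.1 for Epcam and 20.5 for Cdh1, and 0 for the other genes of these 2 lists (Cdh5, Kdr, Emcn, Krt8 and Krt18). In bulk RNA, fewer cells of a type and less RNA per cell cannot be told apart. Of the other pathway lists, Ndufa7 of complex I fell by 0.66 (SE 0.14, adjusted p 0.0386) at gd6.5 as 1 of 39 further subunits tested, and Ogdh rose by 0.85 (SE 0.17, adjusted p 0.0353) as 1 of 16 tested genes of the tricarboxylic acid cycle.

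The second question was how the genes differed between the 3 gd8.5 subsets, which the study places along a course from trNK-V through trNK-D to trNK-T. Nuclear respiratory chain genes had mostly positive log2 fold changes from trNK-V to trNK-T in every complex, led by Cycs, whereas no mt- gene was called. Cycs had RPKM of 64.8 and 57.6 in trNK-V, 86.5 and 107.1 in trNK-D and 147.4 and 142.2 in trNK-T, so that the 3 groups did not overlap. Cox5a had 90.1 and 76.8, then 102.1 and 124.1, then 148.4 and 164.5, also without overlap. Sdhd, a membrane anchor of complex II, had 244.6 and 202.6, then 256.9 and 282.4, then 312.5 and 346.3. Each of these 3 genes was thus ordered in the same way as the surface markers used for the sort, though none was called in either single step. Of all genes, 25.9% were higher without overlap in trNK-D than in trNK-V and 29.4% in trNK-T than in trNK-D. The share of all genes with this order over the 3 groups was not counted.

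Of the 37 nuclear genes, 6 rose and 1 fell in trNK-T against trNK-V by edgeR's adjusted p over 4683 genes, in a comparison in which 34.6% of all genes were called, 15.1% higher and 19.5% lower. The share called was thus below that of all genes, whereas the direction was one-sided: 32 of 37 had positive values, with a median of 0.36 against -0.01 over all genes, and 29 were higher in both trNK-T libraries than in both trNK-V libraries, as were 36.5% of all genes. Cycs rose by 1.246 (SE 0.17), a 2.37-fold change with an adjusted p of 0.00482. Cox5a rose 1.88-fold (log2 0.91, SE 0.18, adjusted p 0.0122). Uqcrfs1, the Rieske iron-sulphur protein of complex III, had RPKM of 119.8 and 73.4 in trNK-V and 150.1 and 180.9 in trNK-T and rose 1.72-fold (log2 0.78, SE 0.25, adjusted p 0.0478). Sdhd rose 1.48-fold (adjusted p 0.0389). Ndufb5, an accessory subunit of complex I, had 21.5 and 19.6 against 29.5 and 29.9 and rose 1.45-fold (adjusted p 0.0399). Cox7b, a small subunit of complex IV, had 152.5 and 157.9 against 234.8 and 213.4 and rose 1.45-fold (adjusted p 0.0310). Ndufa4 went the other way, with 181.8 and 160.7 in trNK-V, 106.9 and 163.8 in trNK-D and 95 and 105.4 in trNK-T, and fell by 0.77 (SE 0.23, adjusted p 0.0429).

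**Figure D2:**
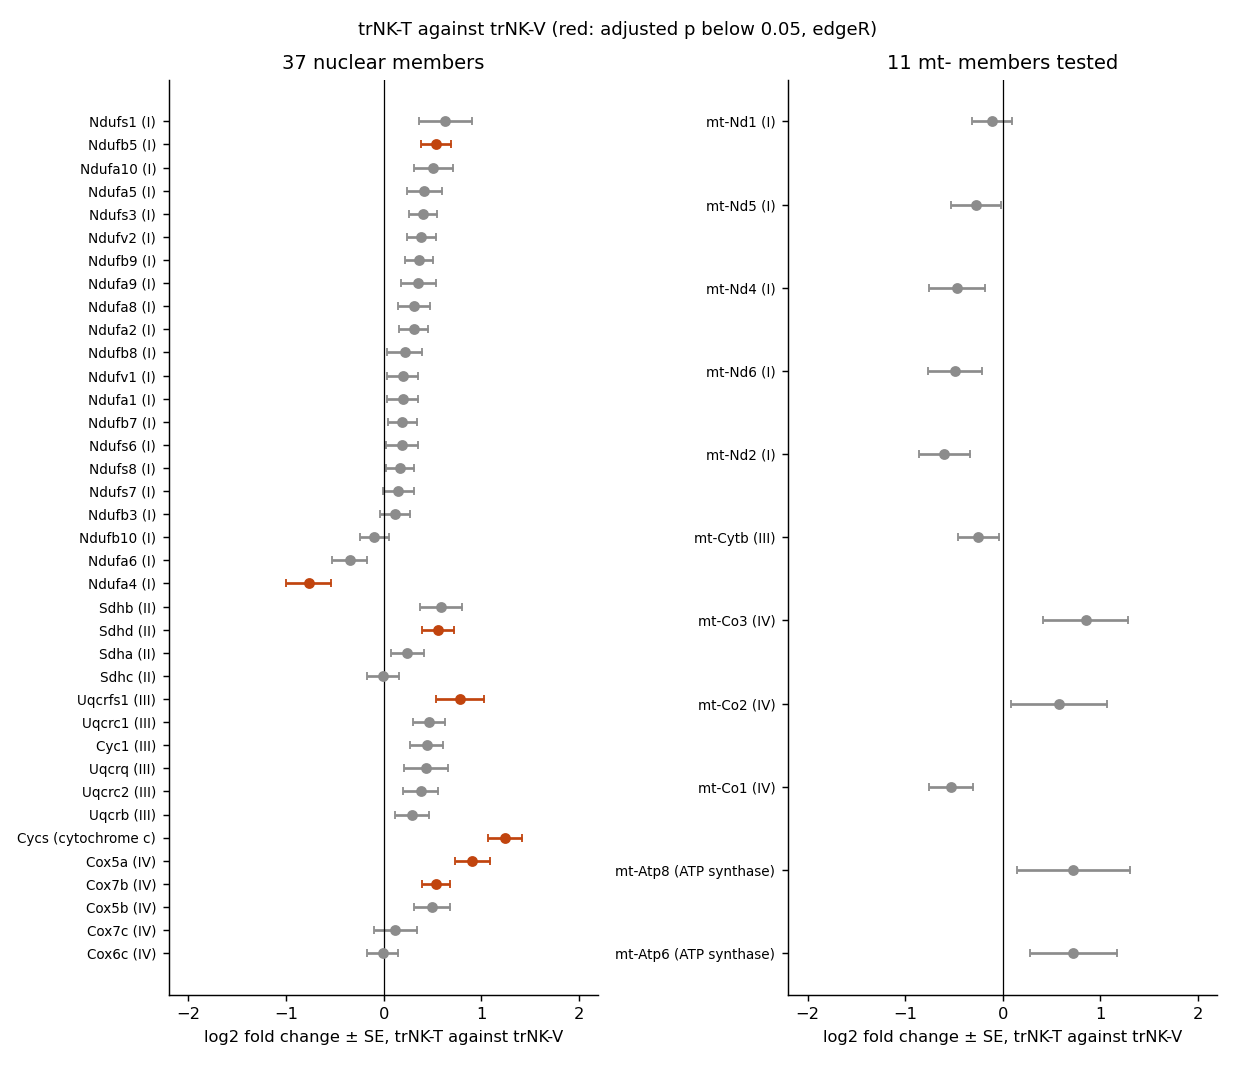
Log2 fold change with its standard error from edgeR, trNK-T against trNK-V (2 libraries each), for the 37 nuclear genes (left) and the 11 mt- genes tested (right), ordered by complex. Red points had an adjusted p below 0.05. Cycs lies farthest to the right at 1.246 and Ndufa4 farthest to the left among the nuclear genes at -0.77.

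By complex, called genes included, 18 of 21 genes of complex I were positive (median 0.21); Ndufs1 had RPKM of 12.4 and 8.05 in trNK-V and 12.9 and 18.7 in trNK-T. In complex II the median was 0.40, and Sdha had 70.0 and 72.5 against 74.3 and 94.1. All 6 genes of complex III were positive (median 0.44), and Uqcrc1 had 117.7 and 111.4 against 148.0 and 167.9 (adjusted p 0.0668). In complex IV the median was 0.50, with Cox6c level at 100.2 and 86.3 against 99.5 and 85.1. Fewer nuclear genes were called when any 1 library of either subset was left out, and when the trNK-D library with the B cell signal was.

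No mt- gene differed between trNK-T and trNK-V by edgeR, of 11 tested and with none at an unadjusted p under 0.05 (48.2% of all genes were), none by DESeq2 and none by limma-voom. Without the second trNK-V library some were called, and the share of all genes called in that fit is not set beside them. The 5 genes without a nuclear copy and mt-Nd4 and mt-Co1 had negative values from -0.11 to -0.60, whereas mt-Co2, mt-Co3, mt-Atp6 and mt-Atp8, whose counts are shared with copies, had positive ones. Without overlap, 5 of the 11 were lower and 1 higher in trNK-T, against 38.3% and 36.5% of all genes, and mitochondrial ribosomal RNA was 0.303% to 0.385% of counts in trNK-V and 0.143% to 0.206% in trNK-T. mt-Nd1 had RPKM of 2274 and 2558 in trNK-V, 2991 and 2218 in trNK-D and 2527 and 1939 in trNK-T. mt-Cytb had 2546 and 2833, then 2938 and 2063, then 2496 and 2012. mt-Co1 had 2175 and 2939, then 2285 and 1659, then 1917 and 1610, and mt-Nd6 316.0 and 426.2, then 497.1 and 310.6, then 302.7 and 225.8. mt-Nd2 had 583.8 and 661.0, then 707.2 and 441.6, then 476.7 and 344.5, and mt-Nd5 372.6 and 498.5, then 600.5 and 376.1, then 385.6 and 334.3. mt-Atp6 had 56.2 and 151.7, then 69.1 and 64.0, then 141.4 and 201.9. The 2 libraries within a subset differed by as much as the subsets did for mt-Nd1 and mt-Cytb. The ratio of mt- to nuclear counts was 1.43 and 1.899 in trNK-V, 1.61 and 1.00 in trNK-D and 1.15 and 0.920 in trNK-T. The ratio was not tested; an exact permutation test of 2 against 2 libraries cannot go below a p of 0.333.

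Against trNK-V, trNK-D showed no called member by edgeR (0.32% of all genes were called), with 4 nuclear genes, no mt- gene and 20.1% of all genes at an unadjusted p under 0.05. DESeq2 called 1 nuclear gene, where it called 436 of all 4683 genes, and limma-voom none. Still, 35 of 37 nuclear genes had positive values (median 0.24), and Cycs was at 0.68 (SE 0.17, adjusted p 0.139). Between trNK-T and trNK-D, where 1.84% of all genes were called, edgeR called no member either, with 2 nuclear and 2 mt- genes and 22.9% of all genes at an unadjusted p under 0.05. DESeq2 called 1 and 2, where it called 624 of all 4683 genes, and limma-voom none. The 3 comparisons share libraries. Genes of the marker lists moved with the subsets: those of the cNK list (3 of 3 tested) and T cell genes (4 of 5 tested) fell from trNK-V to trNK-T, T cell genes summing to 764 to 787 CPM in trNK-V, 438 to 498 in trNK-D and 243 to 330 in trNK-T, and macrophage genes to 62.2 to 390, 350 to 474 and 18.9 to 22.8 CPM. Of the cNK list, Klra4 and Klra8 had medians of 1460 and 1050 CPM over the 34 sorted trNK libraries. Both also led the virginal-stage trNK-like cluster of the single cells described below, so their fall is not specific to cNK. The trNK markers Klrb1c and Ncr1 fell by 1.70 and 0.81 (adjusted p 0.00519 and 0.0166). Pecam1 of the endothelial list rose by 1.23 (adjusted p 0.00583) and Epcam of the epithelial list by 2.94 (adjusted p 0.0053). Of 34 libraries, Pecam1 had counts in 34, Epcam in 33 and the epithelial Cdh1 in 34. The other genes of these lists were mostly absent, with Cdh5, Kdr and Emcn counted in 3, 7 and 4 libraries and Krt8 and Krt18 in 5 and 8. All 5 genes of dividing cells that were tested had positive values (median 1.13) and none was called. Their part in the results was not tested.

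Other genes of the same pathways were counted in the same comparison, in which 15.1% of all genes rose. Of 39 further subunits of the chain and of ATP synthase that were tested, 7 rose (a share near that of all genes) and none fell, with 32 positive, among them Atp5g1 (log2 0.97, SE 0.18, adjusted p 0.0112) and Atp5f1 (0.95, SE 0.18, adjusted p 0.0103) of ATP synthase and Ndufab1 (0.85, SE 0.19, adjusted p 0.0170) of complex I. In the tricarboxylic acid cycle, which supplies the chain with NADH and succinate, 6 of 15 rose and none fell, led by Cs, citrate synthase (1.10, SE 0.17, adjusted p 0.00651), Mdh2 (0.88, SE 0.19, adjusted p 0.0154) and Idh3a (0.86, SE 0.18, adjusted p 0.0159). Of 10 tested genes for upkeep and expression of mitochondrial DNA, 4 rose, with Tfb2m, a mitochondrial transcription factor, at 1.40 (SE 0.29, adjusted p 0.0151) and Hsd17b10, a part of mitochondrial RNase P, at 1.03 (SE 0.15, adjusted p 0.0053). In the same list Mterf3, a repressor of mitochondrial transcription, fell by 0.87 (SE 0.22, adjusted p 0.0262). Of 24 assembly factors 1 rose, Cox18 (1.06, SE 0.29, adjusted p 0.0326), with 11 positive, and Myc, the 1 biogenesis regulator tested, fell by 0.90 (SE 0.20, adjusted p 0.0185).

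For the 6 nuclear genes called higher in trNK-T, a share near that of all genes, the promoters are shown as the 120 bases before the annotated start, 5′ to 3′ on the gene's strand, from RefSeq on GRCm38.p6 (mm10). Capitals mark a match to the motif of NRF1 (GCGCATGC, or GCATGCGC on the other strand) or of ETS factors (CCGGAAG, or CTTCCGG), both known regulators of respiratory chain genes, or of YY1 (AAGATGGC, or GCCATCTT). Cycs and Sdhd each held 1 match, and the other 4 held none; Ndufa4, the gene that fell, is shown for comparison.
Cycs, chr6:50566570-50566689, minus strand: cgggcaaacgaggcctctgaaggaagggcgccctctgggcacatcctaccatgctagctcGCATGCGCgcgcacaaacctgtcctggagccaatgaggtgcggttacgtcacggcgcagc
Sdhd, chr9:50603850-50603969, minus strand: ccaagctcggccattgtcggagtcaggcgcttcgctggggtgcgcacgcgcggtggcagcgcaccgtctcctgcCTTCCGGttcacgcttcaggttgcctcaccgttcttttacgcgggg
Cox5a, chr9:57521112-57521231, plus strand: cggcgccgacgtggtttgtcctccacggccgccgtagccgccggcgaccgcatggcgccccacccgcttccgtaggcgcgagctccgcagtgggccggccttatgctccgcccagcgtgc
Uqcrfs1, chr13:30545317-30545436, minus strand: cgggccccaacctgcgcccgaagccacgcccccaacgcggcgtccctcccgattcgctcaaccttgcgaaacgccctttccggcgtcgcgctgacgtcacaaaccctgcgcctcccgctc
Ndufb5, chr3:32736943-32737062, plus strand: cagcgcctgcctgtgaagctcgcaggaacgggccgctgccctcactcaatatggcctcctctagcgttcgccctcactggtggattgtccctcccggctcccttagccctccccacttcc
Cox7b, chrX:106015580-106015699, plus strand: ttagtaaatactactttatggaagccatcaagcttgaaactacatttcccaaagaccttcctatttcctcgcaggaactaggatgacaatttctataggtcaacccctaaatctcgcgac
Ndufa4, chr6:11907451-11907570, minus strand: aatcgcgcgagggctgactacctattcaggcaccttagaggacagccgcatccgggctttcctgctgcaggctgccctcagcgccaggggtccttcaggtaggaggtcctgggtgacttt

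The match in Cycs starts 60 bases before the start and the match in Sdhd 46 bases before it. Over windows of 300 bases (250 before and 50 after the start), 28 of the 37 nuclear genes were matched by name to 29 windows. Of these 28 genes, 5 (17.9%) held the NRF1 motif, against 3.05% of the 27025 genes with a window, namely Cycs, Ndufa6, Ndufa8, Sdhb and Uqcrc1. The ETS motif stood in 5 (17.9%, against 9.93% of all genes) and the YY1 motif in 4 (14.3%, against 3.19%). Sdhb held both of the first motifs, at different positions. At least 1 of the 3 motifs was found in 13 of 28 genes (46.4%) and in 14.9% of all genes. These are letter matches on either strand and say nothing of binding.

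The third question was how IL-21 and STAT3 inhibition acted on cultured trNK. After 3 days, edgeR called no member between IL-21 and no IL-21, where 0.289% of all 4158 genes were called. There 2 nuclear and no mt- genes had an unadjusted p under 0.05, as had 9.19% of all genes. DESeq2 called 1 nuclear gene, where it called 162 genes in all, and limma-voom none. Cycs had the largest value, with RPKM of 52.3 and 28.1 without IL-21, 121.3 and 77.0 with it and 39.1 and 60.5 with IL-21 and Stattic. It was higher in both IL-21 libraries than in all others, at 1.503 (SE 0.44, adjusted p 0.265) against no IL-21. Cox5a had 124.9 and 70.4, then 171.0 and 119.2, then 63.9 and 111.4, so that the groups overlapped. Uqcrc1 had 87.6 and 114.5, then 80.8 and 105.8, then 61.0 and 46.2. Sdha had 62.4 and 93.8, then 35.6 and 71.7, then 52.9 and 45.4, and Ndufs1, too low to be tested here, had 7.25 and 19.8, then 8.09 and 11.04, then 7.87 and 8.42.

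Most mt- genes of the 3-day culture overlapped between no IL-21 and IL-21. mt-Nd1 had RPKM of 3065 and 2001 without IL-21, 2506 and 1466 with it and 894.5 and 1133 with Stattic as well. mt-Cytb had 3563 and 2327, then 2487 and 1467, then 1042 and 1604. mt-Co1 had 3885 and 3050, then 3341 and 2033, then 2119 and 2787. mt-Nd6 had 918.7 and 567.5, then 788.8 and 353.4, then 385.5 and 463.6, and mt-Atp6 37.3 and 34.7, then 23.3 and 14.5, then 18.1 and 19.8. Against no IL-21, all 10 tested mt- genes were lower in both libraries with IL-21 and Stattic (median -0.54), as were 39.6% of all genes, and against IL-21 34 of 36 nuclear genes had negative values (median -0.50). edgeR called no member in either comparison, in which 4.74% and 2.96% of all genes were called. Against no IL-21 no nuclear gene and 1 mt- gene had an unadjusted p under 0.05, and against IL-21 2 nuclear genes and 1 mt- gene did, where 22.5% and 19.8% of all genes did; DESeq2 and limma-voom called none. The 3 comparisons share libraries, and under the alternatives tried the mt- median ran from -0.69 to 0.20 for IL-21 against no IL-21 and from -0.73 to 0.38 for Stattic against IL-21, changing sign in both. Of 2 biogenesis regulators tested, Gabpa, a subunit of the ETS factor also named NRF2, rose in both Stattic comparisons (2.12, SE 0.34, adjusted p 0.0229 against IL-21, and 1.92, SE 0.34, adjusted p 0.0220 against no IL-21). Of 6 genes for mitochondrial DNA tested, Hsd17b10 rose (2.34, SE 0.42, adjusted p 0.0232) and Ssbp1, the single-stranded DNA binding protein, fell by 1.62 (SE 0.31, adjusted p 0.0289) with Stattic against no IL-21, with none called against IL-21. No other subunit, assembly factor or gene of the tricarboxylic acid cycle was called in either comparison.

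In the time course, 3 of the 13 mt- genes fell with IL-21 at 24 h, where 1.43% of all genes were called lower. At 72 h 3 fell, where 2.06% of all genes were called lower. No mt- gene was called at 6 h and no nuclear gene before 72 h. mt-Nd5, a proton-pumping subunit of complex I, had RPKM of 608.0 and 655.4 at 0 h, 574.9 and 603.7 at 6 h, 802.1 and 808.8 at 24 h and 1318 and 1660 at 72 h without IL-21. With IL-21 it had 753.6 and 774.6, then 327.0 and 293.6, then 362.5 and 382.3, then 870.6 and 1049. mt-Co1 had 5348 and 5695, 5259 and 5228, 7436 and 7614 and 11480 and 12550 without IL-21, and 5707 and 5366, 3762 and 2775, 2960 and 3071 and 8254 and 9044 with it. From 6 h on, both IL-21 libraries of these genes lay below both libraries without it at the same time. mt-Nd1 had 8150 and 8260, 6626 and 6291, 5478 and 5723 and 9496 and 11300 without IL-21, and 9776 and 7890, 5118 and 3542, 3538 and 4117 and 4454 and 5596 with it. mt-Cytb had 8908 and 10010, 9208 and 9724, 10900 and 10280 and 16900 and 21600, and with IL-21 12760 and 7684, 7379 and 5112, 5276 and 6036 and 7728 and 10410.

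At 0 h, 7 of the 13 mt- genes were higher in both IL-21 libraries and none lower, against 13.4% and 19.7% of all genes; mt-Nd2, mt-Nd3, mt-Nd4, mt-Nd5, mt-Co2 and mt-Co3 were among them. mt-Nd6 was another, with 227.8 and 233.5 without against 344.9 and 450.0 with IL-21, then 338.7 and 299.0 against 152.6 and 140.8 at 6 h, 381.6 and 279.0 against 219.0 and 218.4 at 24 h, and 523.6 and 876.6 against 446.8 and 553.9 at 72 h, where the groups overlapped. mt-Atp6 had 252.1 and 425.3 against 914.0 and 404.3 at 0 h, 412.2 and 418.1 against 291.9 and 138.2 at 6 h, 473.8 and 360.8 against 174.5 and 186.3 at 24 h, and 815.8 and 1287 against 419.5 and 717.6 at 72 h.

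**Figure D3:**
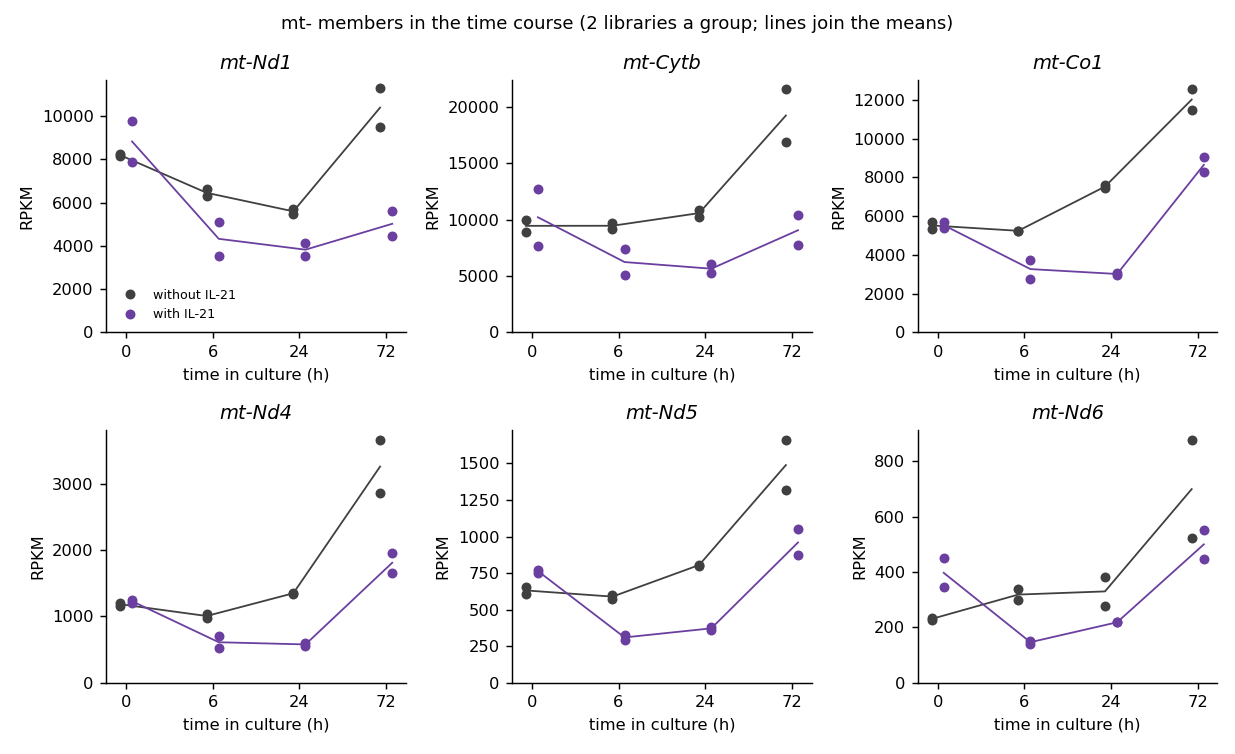
RPKM of 6 mt- genes at 0, 6, 24 and 72 h (spaced evenly) without IL-21 (dark grey) and with it (purple), on linear axes from 0. Points are libraries, 2 a group, and lines join the group means. In all 6 panels the IL-21 libraries lie below the others at 6 and 24 h, and in mt-Nd6 the groups overlap at 72 h.

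All 13 mt- genes were tested in this series among 3503 genes, and all had negative log2 fold changes with IL-21 at 6 h (median -0.96), 24 h (median -1.13) and 72 h (median -0.92), against medians of all genes of -0.02, 0.02 and 0.05. At 24 h, where edgeR called 1.8% of all genes and 1.43% as lower, mt-Co1 fell by 1.42 (SE 0.23, adjusted p 0.0160), mt-Nd4 by 1.32 (SE 0.26, adjusted p 0.0277) and mt-Nd5 by 1.21 (SE 0.24, adjusted p 0.0318), and 12 of the 13 genes were lower without overlap between the groups, as were 27.4% of all genes. At 72 h, where 9.39% of all genes were called, 7.34% higher and 2.06% lower, mt-Nd2 fell by 1.36 (SE 0.38, adjusted p 0.0483), mt-Nd1 by 1.10 (SE 0.29, adjusted p 0.0379) and mt-Nd4 by 0.91 (SE 0.25, adjusted p 0.0472). mt-Nd4, also a proton-pumping subunit of complex I, was thus called at both times. With a replicate block no mt- gene was called at 72 h. At 6 h no mt- gene passed edgeR's adjusted p, where 2.2% of all genes were called, though all 13 were lower in both IL-21 libraries, as were 28.7% of all genes. An unadjusted p under 0.05 was reached by 7 of them and by 12.2% of all genes. DESeq2 called 3, where it called 188 of all 3503 genes, and limma-voom none. At 0 h all 13 had positive values (median 0.51), with 3 mt- and 2 nuclear genes and 3.14% of all genes at an unadjusted p under 0.05 and no call by edgeR, DESeq2 or limma-voom; edgeR called 0% of all genes.

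The 72 h libraries, whose replicates were the least alike, entered the shared estimate of spread. A fit without them, added after the data were seen, called 8.28% of all genes at 6 h (5.11% lower) and 10.6% at 24 h (5.99% lower). In it, 5 mt- genes fell at 6 h, namely mt-Nd6 by 1.15 (SE 0.18, adjusted p 0.00369), mt-Nd5 by 0.95 (SE 0.15, adjusted p 0.00282), mt-Nd2, mt-Nd4 and mt-Co1, and 7 fell at 24 h, the 3 above with mt-Nd2, mt-Nd6, mt-Co2 and mt-Cytb. Nuclear genes were not called in it at either time. In the fit over all libraries, leaving out any 1 of the 4 libraries at 24 h left no mt- gene called.

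The effect of IL-21 at 72 h was not shown to differ from that at 6 h: no member was called in the interaction, where 4.25% of all genes were, with 4 nuclear and no mt- genes and 18.5% of all genes at an unadjusted p under 0.05. DESeq2 called 2 nuclear genes and limma-voom none. Without the first 72 h library lacking IL-21 edgeR called some nuclear genes, and the share of all genes called in that fit is not set beside them. The share of mitochondrial ribosomal RNA, read from the same chromosome, was 1.18% to 1.33% without and 0.651% to 0.991% with IL-21 at 24 h, 0.665% to 0.847% and 0.360% to 0.365% at 6 h, 2.85% to 4.92% and 1.22% to 1.88% at 72 h, and 0.756% to 0.761% and 1.23% to 1.56% at 0 h, in each case on the same side as the mt- genes. T cell genes summed to 607 to 624 CPM without and 446 to 466 CPM with IL-21 at 6 h, to 621 to 742 and 485 to 532 CPM at 24 h, and to 413 to 831 and 860 to 984 CPM at 72 h. B cell genes summed, in the same order, to 314 to 464 and 203 to 225 CPM at 6 h and to 288 to 295 and 149 to 172 CPM at 24 h. The trNK markers Klrb1c and Ncr1 fell by 1.54 and 1.03 with IL-21 at 6 h (adjusted p 0.00155 and 0.00608), and Klrb1c fell by 1.30 at 24 h (adjusted p 0.00384) and by 0.57 at 72 h (adjusted p 0.033). The part of these in the result was not tested.

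Of the 36 nuclear genes tested, 3 rose with IL-21 at 72 h and none fell, a share near the 7.34% of all genes called higher. Cox5a had RPKM of 110.3 and 88.6 without and 186.7 and 147.3 with IL-21 and rose by 0.67 (SE 0.15, adjusted p 0.0213). Uqcrc2, a core protein of complex III, had 24.2 and 9.99 against 46.1 and 39.9 and rose by 1.30 (SE 0.36, adjusted p 0.0438). Sdhc, the other membrane anchor of complex II, had 60.6 and 48.8 against 106.5 and 73.0 and rose by 0.62 (SE 0.18, adjusted p 0.0483). Over all 36, 17 were positive and 19 negative (median -0.11). At 6, 24 and 0 h edgeR, DESeq2 and limma-voom called no nuclear gene, with 1, 1 and 2 at an unadjusted p under 0.05 (12.2%, 15% and 3.14% of all genes). Genes of dividing cells were higher with IL-21 at 72 h (2 of 5 tested rose, all 5 positive, median 2.799), and their part was not tested. The calls at 72 h depended on single libraries. Without the second library of 72 h lacking IL-21 neither mt- nor nuclear genes were called, and without the first more were. Without the first IL-21 library of 72 h fewer were called, and without the second more were. With a replicate block 1 nuclear and no mt- gene was called at 72 h.

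Cycs was again among the nuclear genes with the largest values early. It had RPKM of 319.9 and 375.1 at 0 h, 230.3 and 275.2 at 6 h, 197.2 and 170.5 at 24 h and 177.2 and 165.8 at 72 h without IL-21. With IL-21 it had 381.3 and 260.9, then 452.3 and 352.1, then 308.1 and 303.8, then 131.3 and 160.7. Both IL-21 libraries were higher at 6 h (0.63, SE 0.29, adjusted p 0.401) and at 24 h (0.63, SE 0.29, adjusted p 0.325) and both were lower at 72 h. Cox5a had 234.2 and 267.2 against 244.4 and 268.6 at 0 h, 233.7 and 237.0 against 251.2 and 231.4 at 6 h, and 183.9 and 215.4 against 235.6 and 255.2 at 24 h. Uqcrc1 had 48.7 and 45.9 against 23.2 and 48.4 at 0 h, 74.7 and 41.4 against 90.1 and 102.7 at 6 h, 42.5 and 31.8 against 56.4 and 39.6 at 24 h, and 33.9 and 8.89 against 34.9 and 6.60 at 72 h. Sdha and Ndufs1 were low throughout, at 8.42 to 18.7 and 2.28 to 8.70, and Ndufs1 was not tested.

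Of the other pathway genes with IL-21, Hsd17b10 rose at 6 h (1.17, SE 0.18, adjusted p 0.00927), 24 h (1.02, SE 0.18, adjusted p 0.0204) and 72 h (1.15, SE 0.18, adjusted p 0.0028). At 72 h Tfb2m had RPKM of 0.175 and 0.463 without and 14.8 and 11.3 with IL-21 and rose by 5.20 (SE 0.56, adjusted p 0.000122). Ndufaf7, a methyltransferase for complex I assembly, had 1.56 and 1.81 against 24.5 and 12.9 and rose by 3.33 (SE 0.31, adjusted p 4.34e-05). In all, 2 of 8 genes for mitochondrial DNA, 1 of 22 assembly factors and none of 11 genes of the tricarboxylic acid cycle were called at 72 h, all higher, where 7.34% of all genes were. At 6 and 24 h Hsd17b10 was the 1 gene called in these lists.

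In culture without IL-21, 9 of the 13 mt- genes rose from 24 to 72 h and none was called between the earlier times. Between 0 and 6 h edgeR called no gene at all (0%) and no member had an unadjusted p under 0.05 (3.03% of all genes did), and between 6 and 24 h, where 0.0856% of all genes were called, no member was called and 3 mt- genes and 5.62% of all genes had an unadjusted p under 0.05; DESeq2 and limma-voom called no member in either. From 24 to 72 h all 13 mt- genes were higher in both libraries, as were 17% of all genes, and 9 rose where 17.7% of all genes were called, 6.39% higher and 11.3% lower. mt-Nd2 had RPKM of 856.5 and 751.3 at 24 h and 1680 and 2909 at 72 h and rose 3.72-fold (log2 1.896, SE 0.39, adjusted p 0.0080). mt-Nd4 had 1358 and 1338 against 2862 and 3648 and rose 3.11-fold (adjusted p 0.00158). mt-Nd6 rose 2.76-fold, mt-Nd1 2.39-fold, mt-Nd5 2.38-fold, mt-Cytb 2.34-fold and mt-Co1 2.04-fold. mt-Co2 and mt-Co3, with full-length copies, rose by 1.65 and 1.49 on the log2 scale.

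Of 36 nuclear genes tested, 3 fell from 24 to 72 h and none rose, where 11.3% of all genes were called lower and 6.39% higher. Sdhb, the iron-sulphur subunit of complex II, had RPKM of 271.4 and 275.6 at 24 h and 161.2 and 52.0 at 72 h and fell by 1.07 (SE 0.34, adjusted p 0.0487). Uqcrc2 had 49.1 and 47.4 against 24.2 and 9.99 and fell by 1.19 (SE 0.36, adjusted p 0.0406), and Cox5a fell by 0.67 (SE 0.15, adjusted p 0.0149). The ratio of mt- to nuclear counts went from 2.18 and 2.12 at 24 h to 3.52 and 4.47 at 72 h without IL-21, and from 1.02 and 1.06 to 2.53 and 2.48 with it. Of 11 genes of the tricarboxylic acid cycle 2 fell, Idh3g (-1.16, SE 0.22, adjusted p 0.00474) and Mdh2 (-3.28, SE 0.96, adjusted p 0.0375), and of 8 genes for mitochondrial DNA 3 fell, Tfb2m (-4.61, SE 0.54, adjusted p 0.000184), Tfam, which packages that DNA (-1.11, SE 0.28, adjusted p 0.0204), and Hsd17b10 (-0.61, SE 0.18, adjusted p 0.0406). Atp5g3 of ATP synthase fell too (-0.77, SE 0.22, adjusted p 0.0341). Of 22 assembly factors Ndufaf7 fell (-3.06, SE 0.30, adjusted p 4.57e-05) while Pet100, Cox14 and Ndufaf4 rose (1.39, 0.85 and 0.83). All 5 genes of dividing cells that were tested fell from 24 to 72 h. Genes with a count numbered 10724 and 11665 in the 72 h libraries against 13340 and 14229 at 24 h, and mitochondrial ribosomal RNA was 2.85% and 4.92% of counts against 1.33% and 1.18%. The trNK markers Eomes and Klrb1c rose by 1.49 and 0.66 and Klra8 and Klra4 of the cNK list by 1.13 and 1.01 (adjusted p 0.0428, 0.0116, 0.0208 and 0.0234), and macrophage genes summed to 48.2 to 90.4 CPM at 24 h and 0 to 11.6 CPM at 72 h. Klra8 and Klra4 also led the virginal-stage trNK-like cluster, so their rise is not specific to cNK. The part of these in the result was not tested. The calls depended on single libraries. Fewer were left without either 24 h library or without the second 72 h library, and more were called without the first 72 h library.

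**Figure D4:**
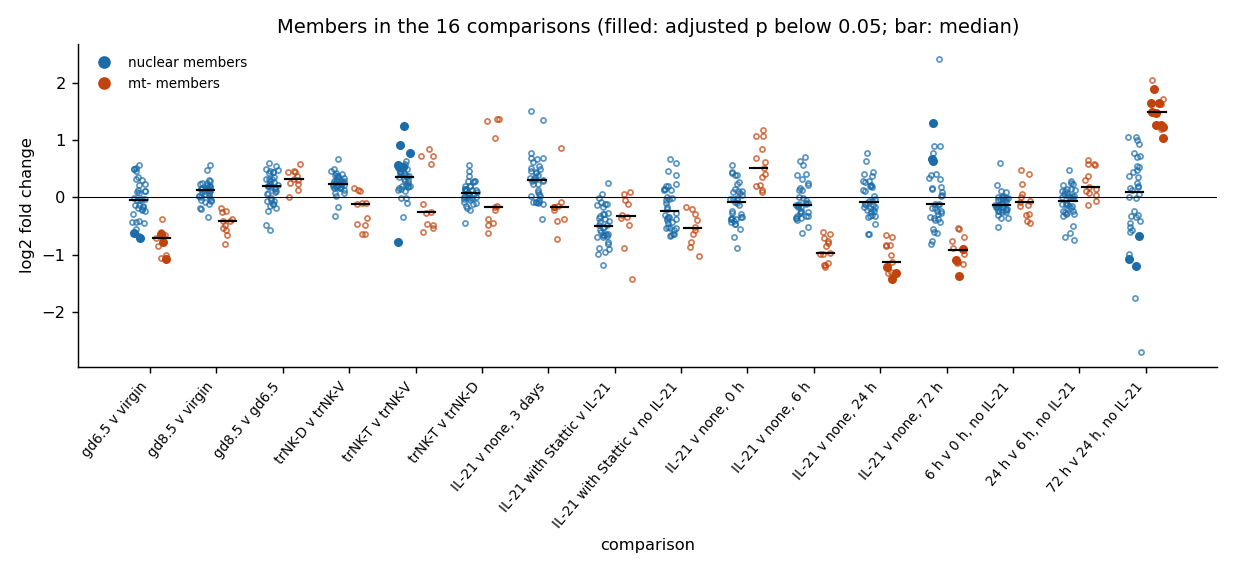
Log2 fold changes from edgeR of the tested members in the 16 comparisons, nuclear genes in blue and mt- genes in red. Filled points had an adjusted p below 0.05, and bars mark medians. The mt- medians lie at -0.96, -1.13 and -0.92 with IL-21 at 6, 24 and 72 h and at 1.49 at 72 h against 24 h, where the nuclear medians lie between -0.13 and 0.10.

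The joined single-cell table held 15175 cells, of which 8907 had over 200 and under 2500 genes and less than 10% mitochondrial transcripts (unique molecular identifiers, UMIs). It carries no tag for virgin or gd8.5 here, so the cells were 1 pooled sample and no test was made; the exact 95% intervals given, Poisson for CPM and Clopper-Pearson for shares, cover counting error only. Of the members 46 were in the table, and mt-Co2, Ndufs7, Ndufs8 and Cox7c were not analysed here. Clustering without the members and other pathway genes gave 17 clusters. Cluster 1 (1420 cells) was virginal-stage trNK-like, with all 4 trNK and all 5 virginal-stage markers, and cluster 6 (655 cells) carried 7 of 8 terminal-stage markers and was led by granzyme genes. Fewer than 3 of the 4 trNK markers were raised in cluster 6 over the other cells, so it is called terminal-stage here by those other markers alone. The terminal-stage cluster held 5224 CPM of nuclear members (95% interval 5145 to 5305) against 4708 (4643 to 4774) in the virginal-stage one, and 3.79% (3.76 to 3.81) of UMIs in mt- genes against 3.01% (2.99 to 3.02). Cycs had 130.5 CPM (118.2 to 143.8) against 92.4 (83.4 to 102.0), and Cox5a 299.1 (280.3 to 318.8) against 239.5 (225.0 to 254.8). Sdha had 116.3 (104.7 to 128.8) against 125.0 (114.5 to 136.1), Uqcrc1 94.4 (84.0 to 105.8) against 85.3 (76.7 to 94.6) and Ndufs1 54.5 (46.7 to 63.3) against 58.8 (51.7 to 66.6), all within overlapping intervals.

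Of the mt- genes named here the 3 most abundant were higher in cluster 6 than in cluster 1. Clusters 5 and 7 also carried 6 and 5 of the 8 terminal-stage markers but were left unnamed, since neither had one among its 10 leading genes and cluster 7 also fell short of the share of markers required, with mt- shares of 0.324% and 1.32%, so the direction held for cluster 6 and not for these. mt-Cytb had 9756 CPM (9648 to 9866) against 7119 (7039 to 7200), mt-Co1 7017 (6925 to 7110) against 5513 (5443 to 5584) and mt-Nd1 6040 (5955 to 6127) against 4760 (4694 to 4826). mt-Nd6 had 37.4 (31.0 to 44.8) against 31.9 (26.7 to 37.8) and mt-Atp6 5.70 (3.38 to 9.01) against 6.14 (4.01 to 9). Over all clusters Cycs was highest in the dividing cells of cluster 8, at 279.3 CPM (258.6 to 301.3), and lowest in the stromal cell-like cluster 14, at 41.1 (26.0 to 61.6). Nuclear members summed to 7512 CPM (7402 to 7622) in the dividing cells, 4635 (4538 to 4733) in the cNK-like cluster 3, 4219 (4150 to 4288) in the macrophage-like cluster 2 and 2341 (2153 to 2542) in the erythrocyte-like cluster 17. The median UMIs per cell differed, at 2642 in cluster 1, 5191 in cluster 6 and 4983 in cluster 8.

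**Figure D5:**
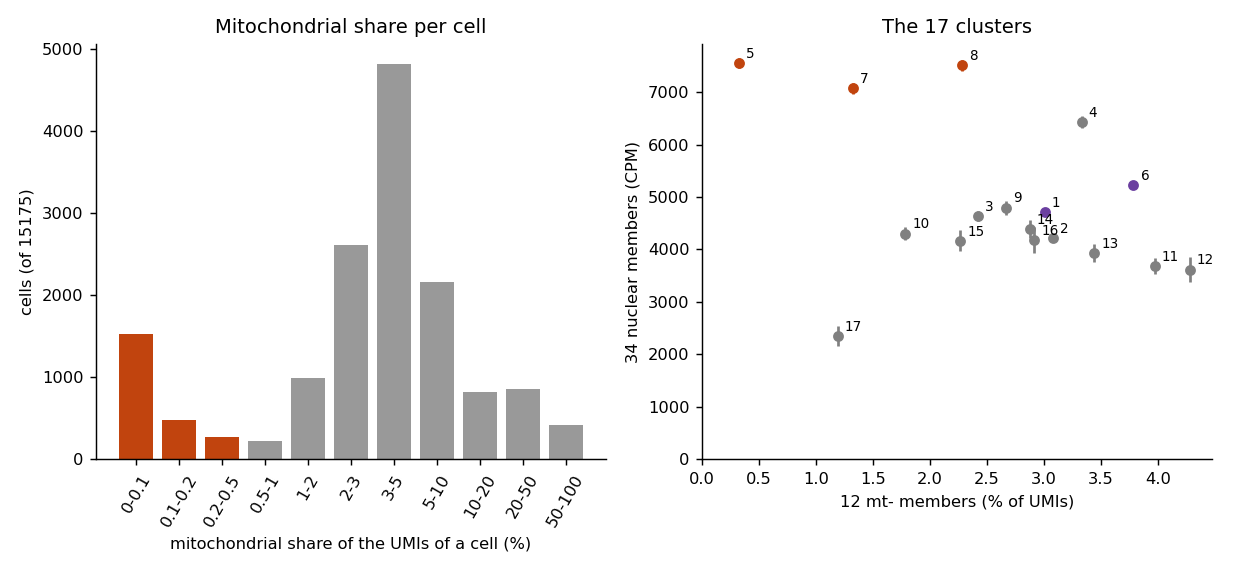
Left, cells by the mitochondrial share of their UMIs in unequal bins, with the 3 bins below 0.5% in red, over all 15175 cells. Right, each of the 17 clusters by the percent of UMIs in 12 mt- genes and the CPM of 34 nuclear genes, with exact 95% Poisson intervals, clusters 1 and 6 in purple and clusters 5, 7 and 8 in red. The 3 red clusters, at 7555, 7073 and 7512 CPM, lie above all others, and cluster 5 lies at 0.324% on the horizontal axis.

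The mitochondrial share per cell had 2 modes. Below 0.5% lay 2270 of 15175 cells (15.0%), 1527 of them below 0.1%, and 222 cells lay between 0.5% and 1%. The limit of 0.5% was set after this distribution was seen and splits cells by the mt- readout itself, so the mt- levels on its sides are a description. Cells below it were not shallow, with a median of 7962 UMIs against 3396 in cells from 0.5% to 10%. They held 0.0718% (0.0706 to 0.0730) of UMIs in mt- genes against 3.00% (2.99 to 3.00), and 0.0164% against 0.549% in mitochondrial ribosomal RNA. mt-Nd1 had 121.5 CPM (116.7 to 126.5) against 5089 (5071 to 5107), and mt-Co1 108.4 (103.8 to 113.1) against 5225 (5207 to 5243).

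Nuclear members were not lower in these cells. Their sum was 7614 CPM (7575 to 7653) against 5696 (5678 to 5715), and 26 of 34 genes were higher, with a median ratio of 1.29. Cycs had 301.3 CPM (293.6 to 309.1) against 163.3 (160.1 to 166.5), Cox5a 562.0 (551.5 to 572.6) against 334.1 (329.5 to 338.6), and Uqcrq, a small subunit of complex III, 752.3 (740.2 to 764.6) against 367.9 (363.1 to 372.7), the highest ratio at 2.05. Sdha had the lowest ratio, 0.569, with 76.1 CPM (72.2 to 80.0) against 133.7 (130.8 to 136.6). Malat1, a nuclear RNA, was at 82.4 CPM against 1027 CPM and ribosomal protein genes at 18.2% against 13.5% of UMIs.

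Cells below 0.5% made up 590 of 663 cells of cluster 5 (led by Mt2, Scin and Ctsg and left unnamed), 276 of 527 of cluster 7 (led by Tpsab1 and Khdc1b, also unnamed) and 149 of 512 of the dividing cells, but 1 of 1420 in the virginal-stage trNK-like cluster 1 and 30 of 655 in the terminal-stage cluster 6. Since clusters 5 and 7 carried 6 and 5 of the 8 terminal-stage markers, cells below 0.5% were few in cluster 6 but not in all cells with such markers. Within cluster 5 the nuclear members summed to 7673 CPM (7578 to 7769) below the limit and 6418 (6150 to 6694) above it, within cluster 7 to 7366 (7227 to 7507) and 6645 (6486 to 6807), and among dividing cells to 8499 (8301 to 8700) and 6992 (6862 to 7124). The order was thus the same in each of the 3 clusters. Of all cells below 0.5%, 1176 had over 2500 genes and were removed by the gene limit. No doublet caller was run, and the part of doublets, free RNA or lost cytoplasm in these levels was not tested.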

How the data were processed

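Bulk libraries were made by full-length cDNA amplification and Illumina sequencing, with another kit in the time course, so levels were not compared across series. The authors deposited raw read counts per gene. The submitters' processing notes name HISAT2 2.1.0, Subread featureCounts and mm10, while the study's methods name RSEM, so the counting step is not settled here. The single-cell files hold UMI counts per gene and cell (BD Rhapsody), without a sample tag. ATAC-seq samples were not used here.

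The 34 count tables were joined over 54353 shared genes and RPKM computed from count, gene length and library total. Genes above 10 RPKM in both libraries of any group were tested with edgeR 4.0.16 (R 4.3.3, TMM, quasi-likelihood, 1 fit per series over all its groups, no covariates), with Benjamini-Hochberg adjustment over all genes tested and a threshold of 0.05. SEs are the size of the log2 fold change divided by the root of F. Alternatives used DESeq2 1.42.0, limma 3.58.1 (voom), no filter, other scaling, a replicate block and each library left out. On simulated counts the fitted fold changes centred on those set; most of the smaller changes set were missed in every series, and in the 3-day culture most of the large ones too. Near-identical copies were found with blastn at 98% identity over at least 100 bases. Cells were clustered with leidenalg 0.10.2.

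Named throughout were mt-Nd1, mt-Cytb, mt-Co1, mt-Atp6, mt-Nd6, Ndufs1, Sdha, Uqcrc1, Cycs and Cox5a, with up to 5 called nuclear genes a direction and comparison, and up to 3 called genes a direction of each other list; mt-Nd2, mt-Nd5 and other mt- genes and markers were added after their values were seen. The members, the lists and the tests were chosen with earlier results of these data known. Some results on further subunits are not reported here.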

Additional observations from a re-analysis of the deposited data

Results flagged for a closer look

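Cycs had values of opposite sign with IL-21 at different times, every IL-21 library lying above both libraries without it or below both, though no time passed the threshold in edgeR. Other nuclear members also lay on opposite sides without overlap at different times, among them Sdhb, Ndufa8, Ndufa9, Ndufb5, Cox6c and Cox7c, so this was not particular to Cycs. Its log2 fold change was 1.503 after 3 days in culture, 0.632 at 6 h, 0.633 at 24 h and -0.269 at 72 h. The difference between 72 and 6 h was tested as an interaction in edgeR and was -0.90 (SE 0.40, adjusted p 0.261, 2 libraries a group), which did not pass the threshold; the difference between the 3-day culture and the time course was not tested.

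mt-Nd6 was higher with IL-21 at 0 h (0.851) and lower at 6 h (-1.152) and 24 h (-0.697), with no overlap between groups. The difference between 0 h and the later times was not tested, and the interaction of 72 against 6 h was 0.60 (SE 0.44, adjusted p 0.564 in edgeR). The same sides, higher at 0 h and lower at 6 and 24 h without overlap, held for mt-Nd2, mt-Nd3, mt-Nd4, mt-Nd5, mt-Co2 and mt-Co3, so the pattern was not particular to mt-Nd6. Of these, mt-Nd3, mt-Co2 and mt-Co3 have nuclear copies over almost their full length and mt-Nd4 over 63.6% of it.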

How the results depend on the processing

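Of 368 recomputed counts and levels, 298 stayed within 1.5 times the main count or within the error of the main level and 70 moved. A main count of 0 that stayed at 0 is among those that stayed, so this total says little of how firm the calls were. Where members were called, leaving out 1 library moved most of the counts. No called member changed sign under any alternative run. Medians of member log2 fold changes did. Those of the mt- genes ran from -0.36 to 0.06 in trNK-T against trNK-V, -0.50 to 0.27 in trNK-D against trNK-V, -0.37 to 0.08 in trNK-T against trNK-D and -0.54 to 0.44 in the interaction, besides the 3-day culture. Those of the nuclear genes ran from -0.13 to 0.08 at gd6.5, -0.38 to 0.08 for Stattic against no IL-21, -0.27 to 0.06 and -0.29 to 0.06 with IL-21 at 0 and 72 h, -0.12 to 0.06 at 24 h against 6 h, -0.03 to 0.20 at 72 h against 24 h and -0.255 to 0.26 in the interaction, and reached 0 at gd8.5 against virgin. Scaling by DESeq2 size factors or by nuclear genes alone moved none. Calls by other tests are given with the number of all genes called by the same test in brackets. Calls by DESeq2's own test were 7 nuclear and 10 mt- at gd6.5 against virgin (1129 of 4504 genes) and 4 and 2 at gd8.5 against gd6.5 (669). They were 1 nuclear in trNK-D against trNK-V (436 of 4683), 13 nuclear in trNK-T against trNK-V (2069) and 1 and 2 in trNK-T against trNK-D (624). In culture they were 1 nuclear after 3 days of IL-21 (162 of 4158), 3 mt- at 6 h (188 of 3503), 6 mt- at 72 h (642), 8 nuclear at 72 h against 24 h (906) and 2 nuclear in the interaction. With limma-voom they were 8 mt- at gd6.5 (589 genes), 1 nuclear with IL-21 at 72 h (383) and 5 nuclear at 72 h against 24 h (789), where voom moved the median of all genes to -0.13. Without the RPKM filter, with more genes tested, they were 0 nuclear at gd6.5 (1216 genes), 1 nuclear in trNK-D against trNK-V (617) and 11 nuclear and 2 mt- in trNK-T against trNK-V (2589). They were 3 mt- in trNK-T against trNK-D (741), 1 nuclear after 3 days (146), 5 mt- at 24 h (74) and 6 nuclear at 72 h against 24 h (1864). Without the 72 h libraries 5 mt- genes were called at 6 h and 7 at 24 h. With the replicate block they were 0 nuclear and 0 mt- at gd6.5 (2 genes called in all) and 1 nuclear and 0 mt- with IL-21 at 72 h (285 in all). Whether replicate numbers pair the libraries is not settled. Correlations of deviations between groups ran from -0.431 to 0.54. They were 0.54 for no IL-21 with IL-21 in the 3-day culture and 0.387 for trNK-D with trNK-T. In the time course, 6 h without IL-21 had 0.407 with 24 h with IL-21 and 0.372 with 72 h with IL-21. Among groups with IL-21, 24 h with 72 h had 0.366 and 0 h with 6 h had 0.271. No other value was above 0.201.

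Leaving out 1 library gave, as lowest and highest counts, 0 to 10 nuclear and 0 to 7 mt- calls at gd6.5 against virgin, 0 to 2 nuclear at gd8.5 against virgin, 0 to 8 and 0 to 2 at gd8.5 against gd6.5, 1 to 5 and 0 to 2 in trNK-T against trNK-V, 0 to 0 mt- at 24 h, 0 to 9 and 0 to 7 at 72 h, 0 to 12 and 1 to 13 at 72 h against 24 h and 0 to 4 nuclear in the interaction. In the virginal-stage and terminal-stage clusters together the mt- share was 3.34% and became 3.81% without the mitochondrial limit, 3.80% at a Leiden resolution of 0.4 (nuclear members 5175 against 4929 CPM) and 3.31% with more variable genes; limits read as UMIs gave no such cluster. The cause of these moves was not tested. With 2 libraries a group, the calls near the threshold depended on single libraries. Counts with a library left out are given without the share of all genes called in the same fit. They show how far the calls moved and are not read as results about the members.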
